A study of Mus musculus with 6 samples.

Results

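The mechanistic target of rapamycin (mTOR) is a kinase that lymphocytes use to match growth to cytokines and nutrients. It works in complex 1 (mTORC1), which drives protein synthesis, and in complex 2 (mTORC2), which acts on kinases such as Akt. Amino acids load Rag GTPases that bring mTORC1 to the lysosome, where the GTPase Rheb switches it on, and the TSC complex switches Rheb off. In NK cells, mTOR signalling is known for its part in growth, metabolism and effector function after cytokine stimulation.

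The transcripts described here are those of 10 mouse genes chosen by name, of 19943 genes tested. They are the kinase gene Mtor, the shared subunit gene Mlst8, Rptor (raptor, which defines mTORC1), Rictor (which defines mTORC2), Rheb, the TSC complex genes Tsc1 and Tsc2, and the Rag GTPase genes Rraga, Rragc and Rragd. All 10 were measured, each by 1 probe set that the platform's annotation gives to that gene alone.

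RNA came from mouse natural killer (NK) cells, on 6 arrays of independent preparations, 3 IL-18 generated and 3 unstimulated. Per the labels, the IL-18 generated cells were NK1.1 isolated and kept overnight with 25 ng/ml IL-18 and 300 IU IL-2. Both groups were sorted as live cells with NK1.1 and without CD3. The IL-18 generated ones were those that lacked CD11b and carried c-kit, and the unstimulated ones those that carried CD11b and lacked c-kit. The sources used here do not say whether unstimulated cells were also cultured or given IL-2. Stimulus and sort gate changed together, and they and any difference in culture cannot be told apart. The labels name no mouse strain or age.

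Values are the authors' processed ones, read as log2, and each probe set is centred on its median over the 6 arrays. They show changes and no expression levels, and a gene that is undetected in both groups would also show a change near 0. With an even number of arrays, such centring makes the middle pair of values equal and opposite. Changes are log2, IL-18 generated minus unstimulated, ± SE with n = 3 arrays a group, and a gene was called at a limma adjusted p below 0.05 over all genes. P-values rest on how the 6 arrays spread, and the small number of arrays limits precision. For limma's SE and p, the variance of each gene was also drawn toward a value shared by all genes.

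Of the genes behind the sort, Kit, which encodes c-kit, and Itgam, which encodes CD11b, followed the gates, with changes of 2.79 ± 0.13 and -5.32 ± 0.11. Both gates took NK1.1 positive cells without CD3, yet Klrb1c, the NK1.1 gene, had a change of -2.03 ± 0.11, and Cd3d, Cd3e and Cd3g of 1.11 ± 0.14, 1.26 ± 0.21 and 1.60 ± 0.20. Of the fixed NK cell markers, 10 of 10 were lower in IL-18 generated cells, and centred values do not show how strongly either group expresses them. Markers of other cells moved between the groups too, beside 19.7% of all genes called higher and 16.7% lower. Lower were 8 of 8 measured monocyte and macrophage markers, 10 of 10 neutrophil markers and 7 of 9 measured B cell markers. Of 9 measured T cell markers 3 were higher, all of them the CD3 genes that both gates selected against, and the other 6 did not pass. That is 33.3% called, near the 36.4% of all genes called in either direction, and is no result about T cells. Summed over the list, relative log2 values of monocyte and macrophage markers were -13.1 to -12.3 in IL-18 generated and 11.3 to 15.9 in unstimulated arrays. For neutrophils the sums were -13.0 to -9.99 against 11.6 to 25.6. For B cells the sums were -2.61 to -1.35 against 0.72 to 4.08. For T cells, with the 3 CD3 genes included, they were 1.13 to 3.57 against -2.21 to -0.36. Unstimulated replicate 2 held the neutrophil sum of 25.6, while the other unstimulated arrays had 11.6 and 11.7. Centred values do not show which of these markers are absent, and the part of other cells in the changes below was not tested. In such bulk samples fewer cells of a type and less RNA per cell cannot be told apart.

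Of the 10 genes, 3 were higher in IL-18 generated cells (Rraga, Mlst8 and Rheb), 1 was lower (Tsc2) and 6 did not pass. Of all genes tested, 36.4% were called in either direction, 19.7% higher and 16.7% lower, so 4 of 10 is near the background and is no result about these genes as a group. Their median change was 0.03, and that of all genes was -0.06. None of the 10 changed by a log2 of 1 or more, a size that 6.86% of all genes reached with an adjusted p below 0.05. The groups did not overlap for the 4 called genes, 3 higher and 1 lower, and for 48.6% of all genes, 22.9% higher and 25.7% lower. Transcripts alone say nothing about the activity of either complex, which is set by phosphorylation and position in the cell.

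**Figure D1:**
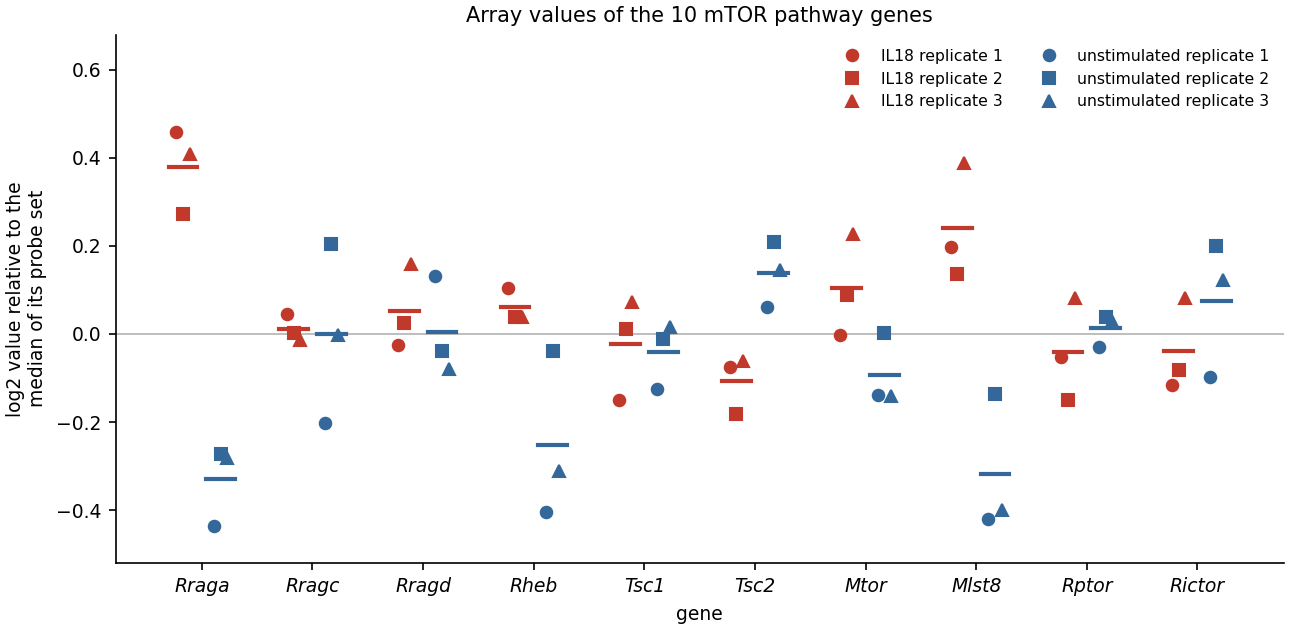
Log2 value of each of the 10 genes on each array, centred on its probe set's median, with IL-18 generated arrays (IL18, red) left of unstimulated arrays (blue), marker shape for the replicate and a bar for the mean of 3. The groups are apart for Rraga, Rheb, Tsc2 and Mlst8 and overlap for the other 6 genes.

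The Rag GTPases work as pairs of a RagA or RagB with a RagC or RagD, and of the 3 such genes described here 1 passed the test. Rraga, which encodes RagA, had values of 0.46, 0.27 and 0.41 in IL-18 generated replicates 1 to 3, against -0.44, -0.27 and -0.28 in unstimulated replicates 1 to 3. All IL-18 generated arrays were above all unstimulated ones. The change was 0.71 ± 0.08, or 1.64-fold, with a limma adjusted p of 7.01e-05, and it was the highest of the 10. Of all genes, 12.2% had a larger absolute change.

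Rragc, which encodes RagC, had values of 0.05, 0.0022 and -0.01 in IL-18 generated arrays, against -0.20, 0.20 and -0.0022 in unstimulated arrays. The IL-18 generated values lay inside the range of the unstimulated ones. Its change was 0.01 ± 0.10 (limma adjusted p 0.940), with a 95% interval of -0.21 to 0.24. Rragd, which encodes RagD, had -0.02, 0.02 and 0.16 in IL-18 generated arrays, against 0.13, -0.04 and -0.08 in unstimulated arrays, so the groups overlapped. Its change was 0.05 ± 0.09 (limma adjusted p 0.694), with an interval of -0.15 to 0.24.

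Within an array, Rraga minus Rragc averaged 0.37 ± 0.09 in IL-18 generated cells and -0.33 ± 0.13 in unstimulated cells (SD, n = 3 each), a difference of 0.70. That pair was chosen after its values were seen and has no test. Rragd minus Rragc, a pair of paralogs, averaged 0.04 ± 0.12 in IL-18 generated cells and 0.0045 ± 0.30 in unstimulated cells (exact two-sided permutation p 0.8, 0.8 after adjustment over 3 pairs). With 3 arrays against 3 the smallest p such a test can give is 0.1. Rragb, the RagB gene and a close paralog of Rraga, had a change of 0.12 ± 0.10 (limma adjusted p 0.377), and whether the probes of these paralogs bind each other's transcripts was not tested.

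Rheb, the GTPase that binds and activates mTORC1, had values of 0.10, 0.04 and 0.04 in IL-18 generated arrays, against -0.40, -0.04 and -0.31 in unstimulated arrays. The groups did not overlap, but unstimulated replicate 2 lay close to the IL-18 generated arrays. The change was 0.31 ± 0.10, or 1.24-fold, with a limma adjusted p of 0.0302. Leaving out an array ended the call in 5 of 6 cases, the exception being unstimulated replicate 2, and the change then ran from 0.24 (adjusted p 0.115, without unstimulated replicate 1) to 0.42 (adjusted p 0.0022, without unstimulated replicate 2). The other adjusted p were 0.0889, 0.0674 and 0.0618 without IL-18 replicates 1, 2 and 3, and 0.0953 without unstimulated replicate 3. Rhebl1, the Rheb-like paralog, had a change of 0.28 ± 0.08 (limma adjusted p 0.0203), which did not pass without IL-18 replicate 1 or 3 or unstimulated replicate 1, with a highest adjusted p of 0.0813.

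The bases just upstream of the annotated starts of Rraga and Rheb, which were higher, and of Rragc, which did not pass, are shown because all are promoters of nutrient-sensing GTPases, with a marked motif in each. They are 250 bases each from RefSeq's GRCm38.p6 table, 5′ to 3′ on the gene's strand and ending at the base before the start: Rraga at chr4:86575423-86575672 on the plus strand, Rheb at chr5:24842362-24842611 on the minus strand and Rragc at chr4:123917183-123917432 on the plus strand. Capitals mark CACGTG, the E-box that MYC and TFEB family factors read, and CCGGAAG, a core read by ETS factors, on either strand. The window of Rragd, also a Rag GTPase gene, held neither of them and is not shown.
Rraga: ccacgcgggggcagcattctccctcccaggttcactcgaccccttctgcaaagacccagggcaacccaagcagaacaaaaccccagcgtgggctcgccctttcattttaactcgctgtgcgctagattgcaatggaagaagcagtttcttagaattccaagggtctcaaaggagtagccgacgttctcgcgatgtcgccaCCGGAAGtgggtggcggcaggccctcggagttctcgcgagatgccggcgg
Rheb: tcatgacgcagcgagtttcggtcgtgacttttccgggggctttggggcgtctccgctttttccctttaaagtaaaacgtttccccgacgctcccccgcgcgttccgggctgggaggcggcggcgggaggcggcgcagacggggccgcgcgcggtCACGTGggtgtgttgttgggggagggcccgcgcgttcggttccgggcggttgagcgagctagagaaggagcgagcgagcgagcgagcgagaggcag
Rragc: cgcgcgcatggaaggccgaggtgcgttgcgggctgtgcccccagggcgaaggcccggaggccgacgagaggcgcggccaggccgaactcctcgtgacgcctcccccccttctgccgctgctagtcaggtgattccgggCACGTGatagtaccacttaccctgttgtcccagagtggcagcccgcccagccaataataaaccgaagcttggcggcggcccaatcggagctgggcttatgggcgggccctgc

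All 10 genes had 1 such window in the table. Of the 10, 2 held CACGTG (Rheb and Rragc), against 6.02% of all 32851 windows of this length. CCGGAAG stood in 3 (Rraga, Mtor and Tsc2), against 6.91% of all windows. The match began 50 bases before the start in Rraga, 96 in Rheb and 112 in Rragc, and 237 and 8 in Mtor and Tsc2. Searched too, on both strands, were TGATGNAA, an element of ATF4, and TGACGTCA, the cyclic AMP response element, with 0 of the 10 windows each and 3.45% and 1.55% of all windows. GGGCGG, the GC box, stood in 4 of the 10 and 32.7% of all windows, and CCAAT in 3 of the 10 and 33.9%. The set of all windows was neither limited to the genes tested nor matched to the 10 for GC content, so these shares show no excess. Motifs were chosen by hand with the changes known, and CACGTG stood in a window of a called gene as well as in one of a gene that did not pass. A match is a description of letters and no binding site.

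The TSC complex inhibits Rheb, with Tsc2 (tuberin) as its GTPase-activating subunit and Tsc1 (hamartin) as its stabilising partner. Tsc2 had values of -0.08, -0.18 and -0.06 in IL-18 generated arrays, against 0.06, 0.21 and 0.14 in unstimulated arrays. The groups did not overlap. The change was -0.24 ± 0.08, a fold of 0.844, with a limma adjusted p of 0.0306. This call was not firm: the adjusted p was 0.0630 with quantile normalization and 0.0653 with arrays centred on their medians. Leaving out an array ended it in 5 of 6 cases, with adjusted p of 0.0638, 0.127 and 0.0529 without IL-18 replicates 1, 2 and 3, and 0.0611 and 0.0730 without unstimulated replicates 2 and 3. The change kept its sign throughout, from -0.28 to -0.21.

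Tsc1 had values of -0.15, 0.01 and 0.07 in IL-18 generated arrays, against -0.13, -0.01 and 0.02 in unstimulated arrays, and the groups overlapped almost wholly. Its change was 0.02 ± 0.08 (limma adjusted p 0.887), with a 95% interval of -0.17 to 0.21. Within an array, Tsc2 minus Tsc1 was 0.08, -0.19 and -0.13 in IL-18 generated cells, against 0.19, 0.22 and 0.13 in unstimulated cells. This difference of -0.26 had the smallest p the exact permutation test allows, 0.1, and 0.3 after adjustment over 3 pairs. Tbc1d7, the third subunit of the TSC complex, rose by 1.28 ± 0.13 (limma adjusted p 2.30e-05). Its values were 0.43, 0.71 and 0.54 in IL-18 generated arrays, against -0.94, -0.43 and -0.81 in unstimulated arrays, so of the 3 subunit genes 1 rose, 1 fell and 1 did not pass.

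Mlst8, a WD-repeat subunit of both complexes that binds the kinase domain, had values of 0.20, 0.14 and 0.39 in IL-18 generated arrays, against -0.42, -0.14 and -0.40 in unstimulated arrays. The groups did not overlap, and unstimulated replicate 2 was again the nearest to the IL-18 generated arrays. The change was 0.56 ± 0.10, or 1.47-fold, with a limma adjusted p of 0.0013, and it stayed called in all 14 alternatives other than a log2 threshold of 1, with a change of 0.49 to 0.65.

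Mtor, the kinase itself, had values of -0.0031, 0.09 and 0.23 in IL-18 generated arrays, against -0.14, 0.0031 and -0.14 in unstimulated arrays. IL-18 replicate 1 and unstimulated replicate 2 crossed by a narrow margin. The change of 0.20 ± 0.09 did not pass, with an unadjusted p of 0.0445 and a limma adjusted p of 0.101, and it passed in 0 of the same 14 alternatives, with adjusted p of 0.0503 to 0.328. Its 95% interval was 0.0059 to 0.39.

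Rptor and Rictor, the subunits that tell the complexes apart, did not pass. Rptor had values of -0.05, -0.15 and 0.08 in IL-18 generated arrays, against -0.03, 0.04 and 0.03 in unstimulated arrays, with a change of -0.05 ± 0.08 (limma adjusted p 0.645) and a 95% interval of -0.23 to 0.13. The unstimulated values of Rptor lay inside the range of the IL-18 generated ones. Rictor had values of -0.12, -0.08 and 0.08 in IL-18 generated arrays, against -0.10, 0.20 and 0.12 in unstimulated arrays, with a change of -0.11 ± 0.10 (limma adjusted p 0.390) and an interval of -0.33 to 0.10. The groups overlapped for Rictor too. Rictor minus Rptor averaged 0.0018 ± 0.07 in IL-18 generated cells and 0.06 ± 0.12 in unstimulated cells (exact permutation p 0.5, 0.75 after adjustment over 3 pairs).

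**Figure D2:**
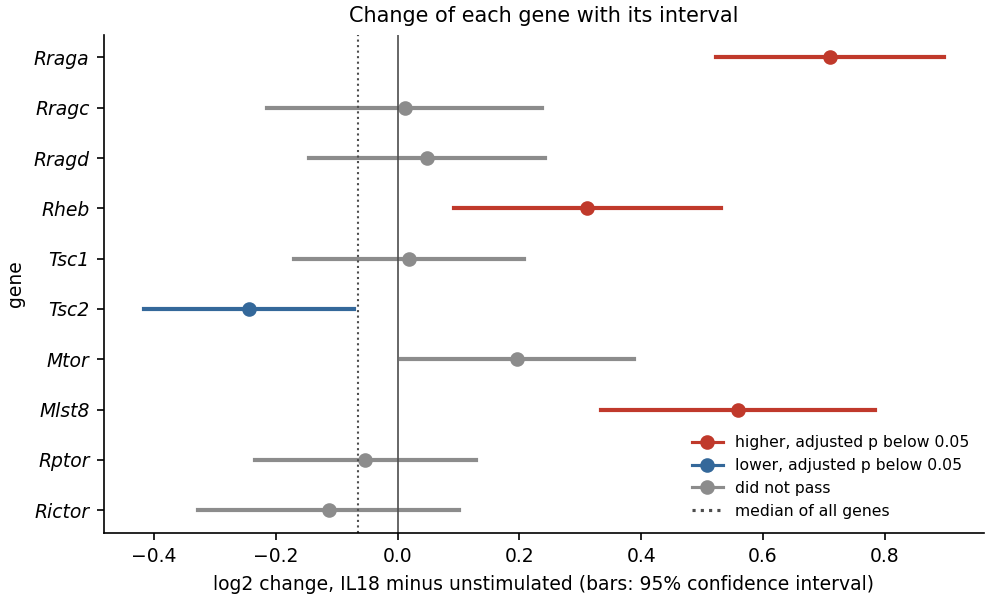
Log2 change, IL-18 generated minus unstimulated, of each of the 10 genes (points) with its 95% confidence interval from limma (bars), in red or blue for an adjusted p below 0.05, with a dotted line at the median of all genes. Rraga at 0.71 and Mlst8 at 0.56 stand farthest from 0, while the intervals of Rragc, Rragd, Tsc1, Rptor and Rictor include it.

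In order of change the genes ran Rraga, Mlst8, Rheb, Mtor, Rragd, Tsc1, Rragc, Rptor, Rictor and Tsc2. The intervals of each gene and its neighbour in that order overlapped throughout, including those of Mlst8 (0.33 to 0.78) and Rheb (0.09 to 0.53). The interval of Rraga (0.52 to 0.90) lay above those of Mtor and of every gene below it. Among IL-18 generated arrays, replicate 3 was the highest for 7 of the 10 genes, while the median of all genes on that array was -0.02. Among unstimulated arrays, replicate 2 was the highest for 8 of the 10 genes and replicate 1 the lowest for 8, with all-gene medians of -0.01 and 0.03.

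**Figure D3:**
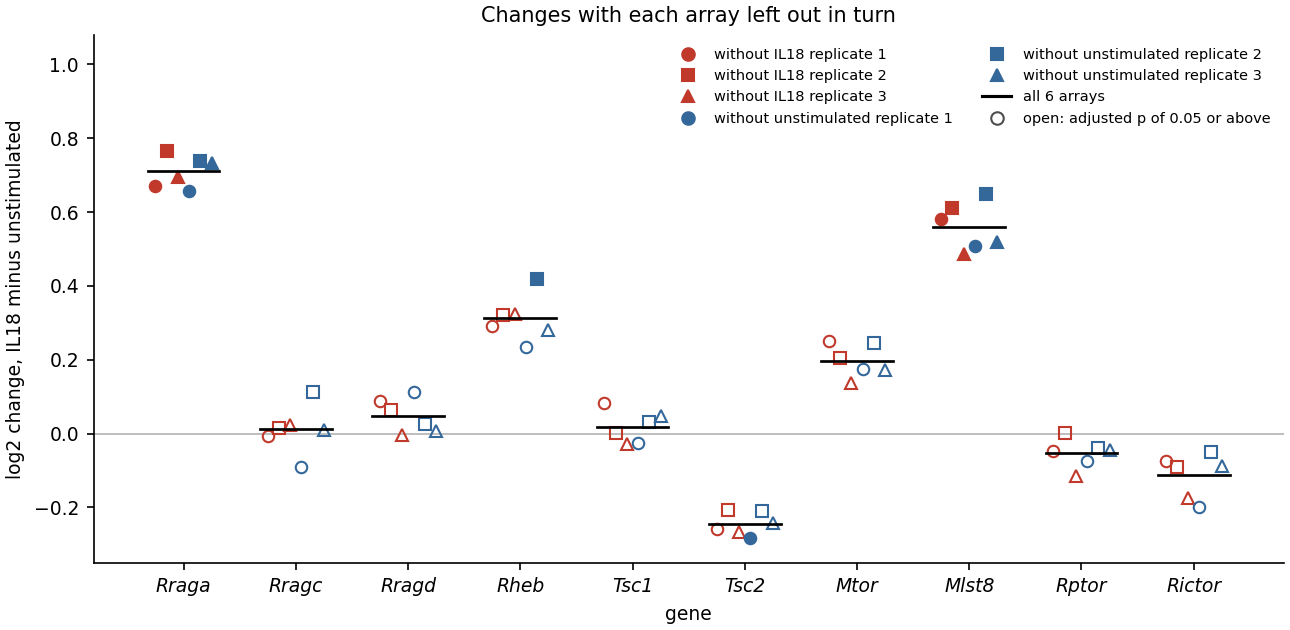
Log2 change, IL-18 generated minus unstimulated, of each gene when 1 array is left out (red for an IL-18 generated array, blue for an unstimulated one, shape for the replicate), with a line at the value from all 6 arrays and open markers where the adjusted p was not below 0.05. Rraga and Mlst8 keep filled markers in all 6 cases, and Rheb and Tsc2 in 1 each.

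Around these genes, 90 further genes of the pathway were set in 10 lists by role, 83 of which were measured. The others were not analysed here. Of the 83, 22 were higher in IL-18 generated cells, 21 were lower and 40 did not pass, with a median change of -0.0037. The share called was 51.8%, against 36.4% of all genes, and the lists were chosen with earlier results known. The counts per list below stand beside 19.7% of all genes called higher and 16.7% lower, and no list was tested as a set.

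Of 8 other subunits and assembly factors of the complexes, 4 rose, 2 fell and 2 did not pass. Prr5 and Prr5l encode related subunits of mTORC2 and went opposite ways. Prr5 had 0.47, 0.27 and 0.47 in IL-18 generated arrays, against -0.27, -0.57 and -0.46 in unstimulated arrays, a rise of 0.84 ± 0.10 (limma adjusted p 6.22e-05). Prr5l had -0.40, -0.30 and -0.36 in IL-18 generated arrays, against 0.30, 0.58 and 0.46 in unstimulated arrays, a change of -0.80 ± 0.09 (limma adjusted p 4.23e-05). Neither pair of groups overlapped. Telo2, which helps fold and assemble mTOR and related kinases, rose by 0.59 ± 0.08 (limma adjusted p 0.00022). Deptor, an inhibitor that binds mTOR, had a change of -0.61 ± 0.12 (limma adjusted p 0.0020). Its values were -0.21, -0.25 and -0.18 in IL-18 generated arrays, against 0.32, 0.18 and 0.68 in unstimulated arrays.

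Of 5 Ragulator genes, which encode the lysosomal anchor of the Rag GTPases, limma called 0, and 0 had an unadjusted p below 0.05. Of all genes 36.4% were called, and 5 genes are too few to read 0 calls as a result about Ragulator. The changes of the 5 lay between -0.14 and 0.13. Among the Rag GTPase genes, Rragc at 0.01 and Rragd at 0.05 lay in that range too, and Rraga at 0.71 did not. Lamtor5 was the 1 that passed, lower, in any of the alternatives, without unstimulated replicate 1. V-ATPase subunits, which acidify the lysosome and contact Ragulator, split: of 15 measured, 4 rose, 3 fell and 8 did not pass. Atp6v1h rose by 0.66 ± 0.07 and Atp6v1g1 by 0.44 ± 0.08, while Atp6v0a1 and Atp6v0a2, subunits of the membrane part, had changes of -0.91 ± 0.15 and -0.34 ± 0.07. The last is the mean of 2 probe sets that differed, with changes of -0.57 and -0.11. The highest limma adjusted p of these 4 was 0.0031.

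GATOR1 switches the Rag GTPases off when amino acids are short, KICSTOR holds it at the lysosome, and GATOR2 acts against GATOR1. Of 5 measured GATOR1 and KICSTOR genes, 3 rose and 2 did not pass. Nprl3 of GATOR1 rose by 0.56 ± 0.07 (limma adjusted p 0.00016) and Itfg2 of KICSTOR by 0.54 ± 0.08 (0.00050). Of 5 GATOR2 genes, 3 rose and 2 did not pass. Wdr59 rose by 1.04 ± 0.11 (limma adjusted p 4.03e-05), with 0.58, 0.37 and 0.82 in IL-18 generated arrays, against -0.56, -0.43 and -0.37 in unstimulated arrays. Mios rose by 0.68 ± 0.12 (limma adjusted p 0.0014). Genes of GATOR1 and KICSTOR and of GATOR2 were thus among those that rose, beside 19.7% of all genes called higher. With 5 genes a list, chosen with earlier results known, these counts are no result about either complex.

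Of 7 genes of the pathway's sensors of amino acids or of S-adenosylmethionine, 1 rose, 3 fell and 3 did not pass. Sesn2 encodes the leucine sensor sestrin 2, which is also a known ATF4 target and holds GATOR2 back when leucine is short. Its values were 1.504, 1.19 and 1.32 in IL-18 generated arrays, against -1.23, -1.22 and -1.19 in unstimulated arrays. The rise of 2.55 ± 0.09, or 5.86-fold, had a limma adjusted p of 2.88e-08 and was the largest change among the 83 genes and the 10 members. Bmt2, the S-adenosylmethionine sensor SAMTOR, had a change of -0.59 ± 0.10 (limma adjusted p 0.0010) and Castor1, an arginine sensor, of -0.58 ± 0.11 (0.0021). Of the 3 genes of the folliculin complex, which acts on RagC and RagD, 1 fell and 2 did not pass. Flcn had a change of -0.24 ± 0.08 (limma adjusted p 0.0361), a call that ended with quantile normalization, with arrays centred and without IL-18 replicate 1 or 2 or unstimulated replicate 2 or 3, the highest adjusted p being 0.153.

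Of 16 measured kinases and brakes upstream of TSC and mTOR, 1 rose, 6 fell and 9 did not pass. Ddit4 (REDD1), which promotes the inhibition of mTORC1 by TSC, rose by 0.60 ± 0.11 (limma adjusted p 0.0017). Pik3cb, a catalytic subunit of PI3 kinase, had a change of -1.32 ± 0.14 and Pik3r1, its regulatory subunit, of -0.86 ± 0.10 (limma adjusted p 3.12e-05 and 6.97e-05). Of 16 measured effectors downstream, 4 rose, 6 fell and 6 did not pass. Eif4ebp1, the translation repressor that mTORC1 phosphorylates and a known ATF4 target, rose by 1.81 ± 0.09, with 1.05, 0.79 and 1.01 in IL-18 generated arrays, against -0.85, -0.92 and -0.79 in unstimulated arrays. Grb10, an adaptor and mTORC1 substrate that restrains growth factor signalling, rose by 1.53 ± 0.16. Lpin1, a phosphatidate phosphatase, and Pdcd4, an inhibitor of translation initiation, had changes of -1.69 ± 0.09 and -1.21 ± 0.11. Limma adjusted p for these 4 was at most 3.44e-05.

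**Figure D4:**
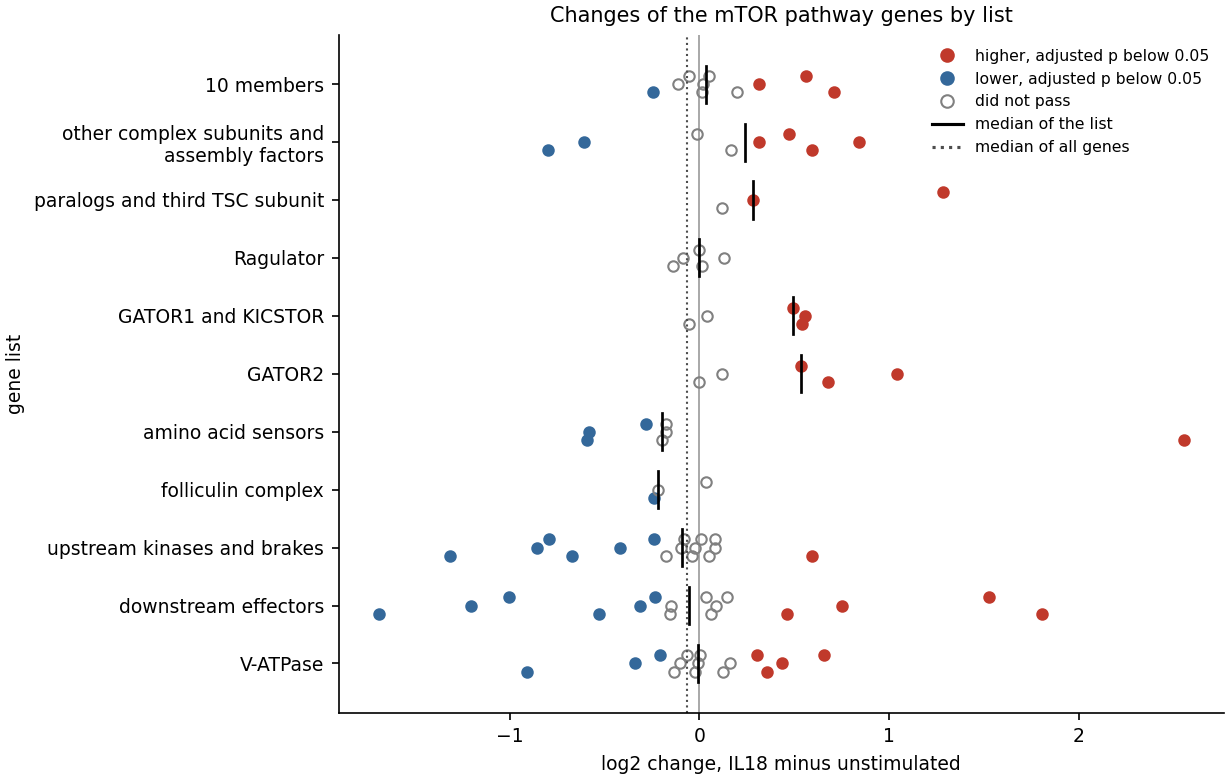
Log2 change, IL-18 generated minus unstimulated, of each measured gene (points) in the 10 members and in 10 lists of other pathway genes, filled red or blue for an adjusted p below 0.05, with a black bar at the median of each list and a dotted line at the median of all genes. The 5 Ragulator genes lie within -0.14 to 0.13, and Sesn2 stands alone at 2.55.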

How the data were processed

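Total RNA was biotin labelled and hybridised to 1-colour Affymetrix arrays, per the labels' protocols. The deposited table holds log2 values by the authors, for 28815 probe sets, with summarization, normalization and log base not given in the sources used here. Log2 was read from the values (a range within a probe set of up to 7.77). Every probe set is centred on its median over the 6 arrays (largest departure 5e-07). The annotation gave 1 symbol to 21788 probe sets, several to 1597 and none to 5430; those with 1 symbol were averaged into 19943 genes. The contrast was fitted by lmFit and eBayes of limma 3.58.1 (R 4.3.3) without covariates, with Benjamini-Hochberg adjustment over all genes. The procedure was tested on simulated data. Differences between paired genes had exact permutation tests (Python 3.11.15, numpy 2.4.6). Members and lists were chosen with earlier results of these data known. Named were all members and, per list, up to 2 called genes that rose most and 2 that fell most, plus values needed to complete a statement (Rragb, Lamtor5). No filter on dim genes was possible, since centred values hold no level.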

Additional observations from a re-analysis of the deposited data

How the results depend on the processing

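Alternatives were limma's trend and robust options, quantile normalization, centring of arrays on their medians, array weights, all probe sets as features, genes with 1 probe set only, the replicate number as a block, a log2 threshold of 1, and each array left out in turn. Rraga and Mlst8 stayed called in all of these except the threshold of 1, which left 0 of the 10 genes higher (Rraga 0.71, Mlst8 0.56, Rheb 0.31) and 0 lower (Tsc2 -0.24), and 721 of all genes higher and 647 lower, with 5 and 4 of the pathway genes. Tsc2 was not called with quantile normalization (-0.23), with centred arrays (-0.21) or with the replicate block (-0.24, adjusted p 0.0529), so 0 genes were lower there. Same-numbered arrays did not deviate together over all genes (correlations of deviations 0.238, 0.007 and -0.02, and IL-18 replicates 2 and 3 correlated best with another number), so the numbers were not taken as pairs. The replicate block changed no other call among the 10 genes and, of the pathway genes named, ended that of Flcn (adjusted p 0.0583), and 22 pathway genes were higher and 17 lower under it. With an array left out, changes ran from 0.24 to 0.42 for Rheb, -0.28 to -0.21 for Tsc2, -0.20 to -0.051 for Rictor, -0.11 to 0.0022 for Rptor, -0.029 to 0.082 for Tsc1, -0.089 to 0.11 for Rragc and -0.0048 to 0.11 for Rragd, so the last 4, none of them called, changed sign. The difference between Rragd and Rragc ran from -0.087 to 0.20 and changed sign too. Counts then ran from 2 to 3 genes higher and 0 to 1 lower of the 10, from 3384 to 4178 higher and 2651 to 4408 lower of all genes, and from 20 to 22 higher and 16 to 20 lower of the pathway genes. The other results pool changes of single genes with counts of called genes per list. Of these, 652 stayed the same. A gene's change did so if it kept its direction and side of the threshold, a count if it moved by at most 1.5 times. In 27 cases a gene's change lost the call, among them those under the log2 threshold of 1. In 24 cases a count moved by more, or to or from 0, and 0 changes reversed sign. The cause was not tested. The planned filter on low values was not run, since centred values hold no level. Array signal over background is unknown here, so small changes may lie at the limit of what the probes detect.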
